A study of Mus musculus with 13 samples.

Results

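The genes described here encode the basement membrane and the surrounding matrix of vessels: 41 genes named by symbol, of 47643 gene rows counted in brain vessel fractions of mice. They fall into 5 fibrillar collagens, 6 collagen IV chains, 6 other collagens, 9 laminin chains, 4 nidogens and heparan sulfate proteoglycans, 3 adhesive or matricellular proteins, 4 interstitial proteoglycans and 4 elastic fibre proteins. Each of the 41 symbols matched 1 row, and each of the 41 genes was among the 17285 genes with enough reads to be tested.

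RNA was sequenced from the neurovasculature of 13 male CD1 mice aged 8 to 10 weeks, with 1 library per mouse. CD1 is an outbred stock, and the mice of a group therefore differ in genotype. The 4 sham-vehicle mice received PBS, and the 5 LPS-vehicle mice received lipopolysaccharide (LPS, a cell wall component of Gram-negative bacteria) at 3 mg/kg into the peritoneum at 0, 6 and 24 h. The 4 LPS-CPD-4645 mice received the same LPS doses and, 30 min after each of them per the labels (the sources used here do not all give the same delay), 10 mg/kg CPD-4645 under the skin, an inhibitor of monoacylglycerol lipase, the enzyme that breaks down the endocannabinoid 2-arachidonoylglycerol. The names of the sham-vehicle and LPS-vehicle groups give vehicle in place of the drug, and the LPS came from *Salmonella enterica* serotype typhimurium. Brains were taken at 28 h from mice that had not been perfused, so blood was not washed out of the vessels. Mice given CPD-4645 without LPS were not analysed here.

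The basement membrane is a thin sheet of protein that wraps endothelial cells and pericytes. Laminin trimers form one network, collagen IV trimers form another, and nidogens and perlecan tie the networks together. In the brain, astrocyte end-feet rest on a second sheet of their own, and fibrillar collagens are made mainly by the few fibroblasts around larger vessels and in the meninges. The comparisons ask which of these genes changed with LPS and which differed when LPS was given with CPD-4645.

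The libraries held 7813559 to 55133373 counted reads (median 26989885), and the 41 genes took 0.0792% to 0.162% of them. LPS-vehicle mouse 3 gave the lowest total and LPS-CPD-4645 mouse 1 the next. Levels are given as CPM, the counts of a gene scaled to the size of its library after TMM scaling, and levels of single genes are compared with each other only per kilobase of exon. The fraction was checked against markers of its cell types, each list summed in CPM. The 9 endothelial markers, among them *Cldn5* and *Pecam1*, were detected and summed to 215 to 346 in sham-vehicle, 243 to 491 in LPS-vehicle and 249 to 346 in LPS-CPD-4645 mice. The 6 neuronal markers summed to 8722 to 10024, 7443 to 8232 and 7828 to 10055, and the 5 oligodendrocyte markers to 3882 to 5702, 2764 to 3764 and 3333 to 4323. Both sums were thus far above the endothelial sum in each mouse, although the label names vessels. The lists differ in genes and gene lengths, so the share of RNA from each cell type was not measured. Which cells the reads of the matrix genes came from was not tested. The 6 astrocyte markers summed to 1549.9 to 2004, 2063 to 2687 and 1904 to 2463, with *Gfap* higher past the threshold with LPS (log2 fold change 2.40), and the 6 choroid plexus markers to 342 to 715, 171 to 377 and 244 to 784, with *Ttr* and *Kcnj13* lower with LPS (-1.04 and -1.22). *Gfap* averaged 95.2 CPM of a mean astrocyte sum of 1818 in sham-vehicle and 504 of 2428 in LPS-vehicle mice. With LPS, 4 of the 6 astrocyte log2 fold changes were above 0. *Ttr* held 463 of the mean choroid plexus sum of 494 CPM in sham-vehicle mice, and 1 of those 6 log2 fold changes was above 0 with LPS. The 7 neutrophil markers summed to 1.23 to 4.93, 59.8 to 261 and 7.04 to 26.6 and the 7 monocyte and macrophage markers to 10.4 to 15.7, 28.6 to 86.5 and 9.81 to 15.9. The 5 erythrocyte markers summed to 468 to 957, 239 to 460.1 and 325 to 705, and 4 of the 4 tested fell with LPS by less than 2-fold. The 6 microglia markers summed to 214 to 293, 162 to 299 and 152 to 201, with *P2ry12* lower past the threshold with LPS (log2 fold change -3.33). The 5 platelet markers summed to 12.4 to 17.7, 11.7 to 17 and 14.9 to 21.5 and the 5 ependymal markers to 18.3 to 21.6, 17.5 to 31.3 and 15.1 to 21.3. Mitochondrial genes took 6.47% to 12.7% of the counts in sham-vehicle, 4.84% to 7.05% in LPS-vehicle and 3.97% to 8.17% in LPS-CPD-4645 mice. The part of these glial, choroid plexus, blood cell and mitochondrial differences in the results below was not tested. In bulk tissue, fewer cells of a type and less RNA per cell cannot be told apart.

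In sham-vehicle mice the matrix genes spanned a wide range of levels per kilobase. *Sparc*, a secreted collagen-binding protein of vessel cells and glia, had the highest level, 111 ± 21.1 CPM per kb (SD, n = 4). *Agrn* (agrin, a heparan sulfate proteoglycan of the vascular and end-foot basement membrane) followed at 22.7 ± 2.001, *Dcn* (decorin, a small collagen-binding proteoglycan) at 17.8 ± 0.571, *Col6a1* at 11.8 ± 2.46 and *Bgn* (biglycan) at 10.3 ± 2.48 CPM per kb. The spreads of *Col6a1* and *Bgn* overlapped each other. *Col4a1* and *Col4a2*, the chains of the collagen IV trimer found in most vessels, stood at 8.41 ± 1.13 and 7.86 ± 1.28 CPM per kb. The highest laminin chain was *Lamc1*, the gamma chain of most laminin trimers, at 5.31 ± 0.531 CPM per kb, before *Lamb2* at 4.47 ± 0.952. *Col1a2* led the fibrillar collagens at 3.58 ± 0.449 and *Eln* (elastin) the elastic fibre genes at 2.97 ± 0.443 CPM per kb. At the low end, *Col4a3*, *Col4a4*, *Col4a6* and *Lama3* had 0.0736 ± 0.0504, 0.116 ± 0.081, 0.188 ± 0.141 and 0.206 ± 0.0381 CPM per kb, with as few as 2 reads in a library (*Col4a6*).

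**Figure D1:**
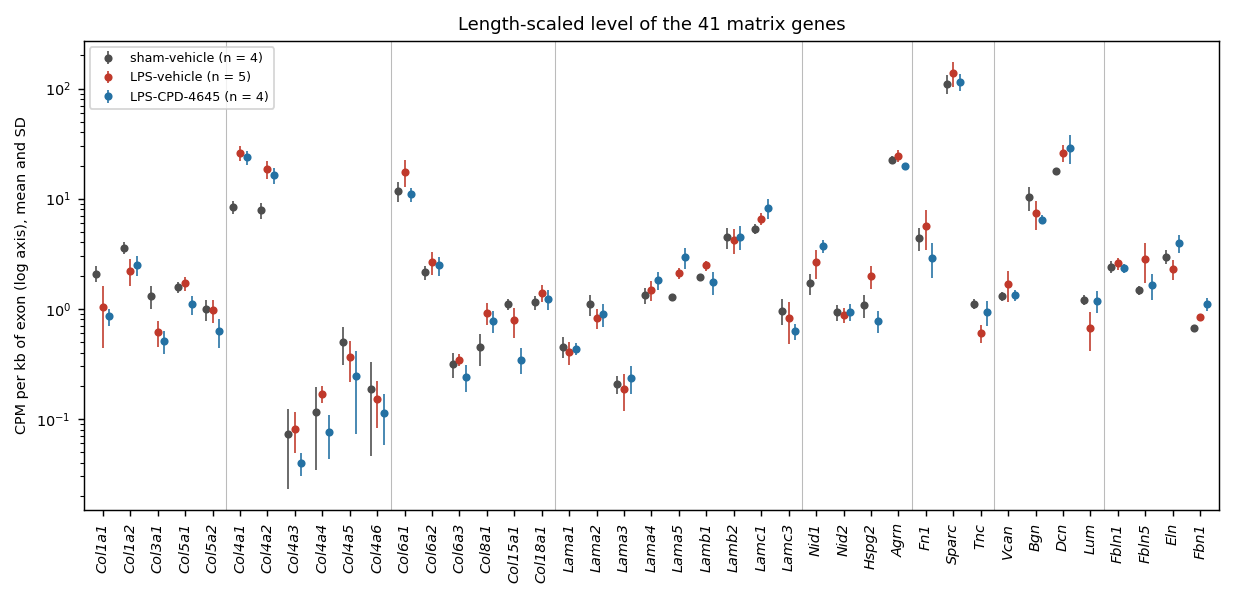
Level of each of the 41 genes in CPM per kb of exon on a log axis, as the mean and SD of the 4 sham-vehicle, 5 LPS-vehicle and 4 LPS-CPD-4645 mice, with grey lines between roles. *Sparc* stands highest in each group and *Col4a3* lowest, and *Col4a1* and *Col4a2* are the genes whose LPS-vehicle points lie farthest above their sham-vehicle points.

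*Sparc*, *Agrn* and *Lamc1* each had the highest level per kilobase among the genes of their role. *Sparc* had 299, 333, 353 and 222 CPM in the 4 sham-vehicle mice, 329, 474, 245, 364 and 469 CPM in the 5 LPS-vehicle mice and 367, 335, 320 and 235 CPM in the 4 LPS-CPD-4645 mice. The 3 groups overlapped in *Sparc*, and neither step passed the test (LPS-vehicle against sham-vehicle: log2 fold change 0.32, 95% interval -0.05 to 0.69, adjusted p = 0.222; LPS-CPD-4645 against LPS-vehicle: log2 fold change -0.26, 95% interval -0.63 to 0.11, adjusted p = 0.275). *Agrn* had 183, 190.2, 179 and 154 CPM in the 4 sham-vehicle mice, 218, 203, 167, 203 and 169 CPM in the 5 LPS-vehicle mice and 158, 152, 155 and 149.6 CPM in the 4 LPS-CPD-4645 mice, and *Lamc1* had 43.8, 43.8, 39 and 35.5 CPM in the 4 sham-vehicle mice, 47.3, 59.1, 43.2, 50.1 and 50.8 CPM in the 5 LPS-vehicle mice and 60.9, 77.9, 67.3 and 46.5 CPM in the 4 LPS-CPD-4645 mice. In *Agrn* each LPS-CPD-4645 mouse was below each LPS-vehicle mouse, while in *Lamc1* each LPS-CPD-4645 mouse was above each sham-vehicle mouse.

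LPS changed a few matrix genes in opposite directions. The 2 vascular collagen IV chains and the collagen VIII chain *Col8a1* were higher in LPS-vehicle than in sham-vehicle mice, and the fibrillar collagen gene *Col3a1* was lower. These 4 of 41 genes passed the threshold of an adjusted p of at most 0.05 with at least a 2-fold change (edgeR quasi-likelihood test, Benjamini-Hochberg adjustment over 17285 genes), 3 higher against 4.68% of all genes tested and 1 lower against 0.995%. In what follows, a gene rose or fell where its adjusted p was at most 0.05, and passed the threshold where the change was also at least 2-fold. At an adjusted p of at most 0.05 with no minimum fold, 9 genes were higher, against 11.1% of all genes, and 4 were lower, against 8.86%. The groups did not overlap in 13 genes, with LPS-vehicle above in 8 (9.68% of all genes) and below in 5 (8.44%). The median log2 fold change of the 41 genes was 0.122, beside -0.00065 for all genes tested, and 24 of the 41 were above 0, beside 49.9% of all genes.

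*Col4a1* and *Col4a2* encode the alpha1 and alpha2 chains, which assemble into the collagen IV network of vessels. *Col4a1* had 65.8, 49.3, 56.5 and 50.9 CPM in the 4 sham-vehicle mice, 163, 207, 138, 165 and 193 CPM in the 5 LPS-vehicle mice and 178, 177, 136 and 135 CPM in the 4 LPS-CPD-4645 mice. *Col4a2* had 56.6, 56.5, 50.7 and 39 CPM in the 4 sham-vehicle mice, 115, 150, 89, 116 and 130.4 CPM in the 5 LPS-vehicle mice and 118, 117, 106 and 80.6 CPM in the 4 LPS-CPD-4645 mice. In both genes each LPS-vehicle and each LPS-CPD-4645 mouse lay above each sham-vehicle mouse. The mean of *Col4a1* rose from 55.6 ± 7.46 to 173 ± 26.9 CPM (log2 fold change 1.64, SE 0.13, adjusted p = 6.66e-08) and that of *Col4a2* from 50.7 ± 8.28 to 120.1 ± 22.4 CPM (log2 fold change 1.25, SE 0.15, adjusted p = 7.14e-06). In this comparison *Col4a1* alone of the 41 genes passed when a change of over 2-fold was itself tested. The other 4 chains, *Col4a3* to *Col4a6*, were low and did not pass the test: their log2 fold changes lay between -0.43 for *Col4a5* and 0.55 for *Col4a4*, with intervals as wide as -1.47 to 0.98 for *Col4a6*.

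**Figure D2:**
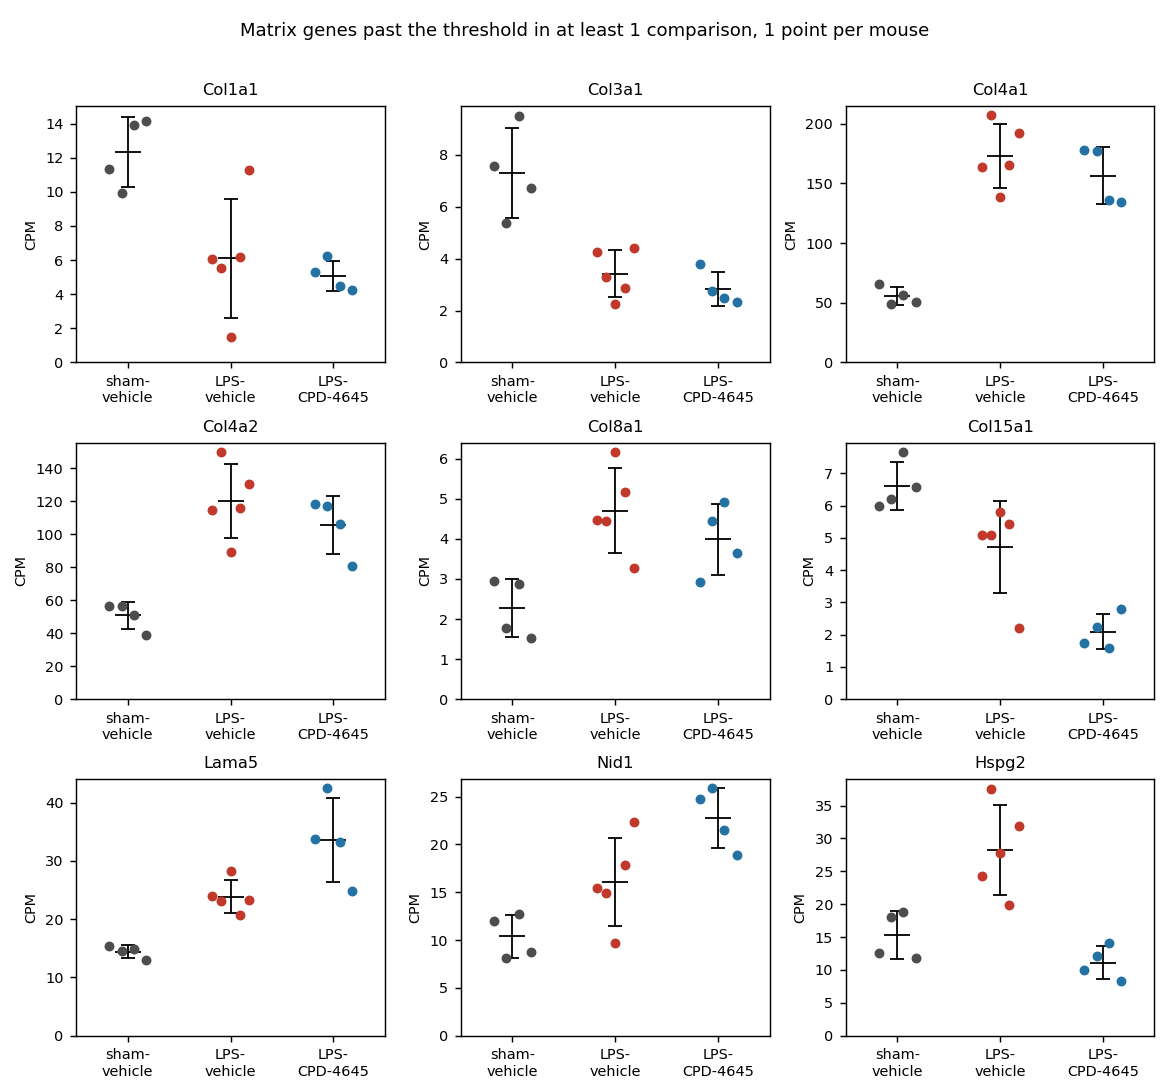
CPM in each mouse (points) with the group mean and SD (bars) for the 9 matrix genes past the threshold in at least 1 of the 3 comparisons. *Col4a1* and *Col4a2* are high in both LPS groups, *Hspg2* is highest in LPS-vehicle mice, *Lama5* and *Nid1* are highest in LPS-CPD-4645 mice, and *Col15a1* is lowest there.

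*Col4a1* and *Col4a2* lie head to head on chromosome 8 (GRCm38), *Col4a1* on the minus strand at 11198423 to 11312826 and *Col4a2* on the plus strand at 11312805 to 11449287, so that their first exons share 22 bases, with 0 coding bases of either gene among them. The shared stretch is shown because reads there belong to one gene or the other by strand alone, and the strand setting of the counting is not given in the sources used here. It is chr8:11312805-11312826, written on the plus strand from RefSeq's GRCm38 sequence, with a GGGCGG motif in capitals.
First exons of Col4a1 and Col4a2: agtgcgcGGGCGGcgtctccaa
This is a small part of the 6615 exon bases of *Col4a1* and the 6450 of *Col4a2*. The same head-to-head order holds for *Col4a4* (minus strand, chromosome 1, 82448423 to 82586849) and *Col4a3* (plus strand, 82586921 to 82722059), both of which were low. Of the other matrix genes, *Fbn1* shared the longest exon stretch with a gene on the opposite strand, 2442 bases with *Gm9913*, and *Nid2* shared 437 bases with *Rtraf*.

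Among the other collagens, *Col8a1* encodes a short-chain collagen of vessel walls. It had 2.94, 1.77, 2.87 and 1.53 CPM in the 4 sham-vehicle mice, 4.46, 4.45, 6.18, 5.17 and 3.28 CPM in the 5 LPS-vehicle mice and 2.93, 4.44, 4.93 and 3.65 CPM in the 4 LPS-CPD-4645 mice. Each LPS-vehicle mouse lay above each sham-vehicle mouse (log2 fold change 1.02, SE 0.26, adjusted p = 0.00912), and the LPS-CPD-4645 mice overlapped both groups. The call was at the edge of the 2-fold bound: the log2 fold change was between 0.87 and 0.97 without sham-vehicle mouse 2 or 4 or LPS-vehicle mouse 3 or 4, each of which ended it, and the limma-voom value was 0.94. *Col6a1*, a chain of the beaded-filament collagen VI, had 58.2, 55.8, 39.2 and 40 CPM in the 4 sham-vehicle mice, 103, 74.9, 49.5, 62.8 and 70.7 CPM in the 5 LPS-vehicle mice and 53.1, 40.4, 46.4 and 39.5 CPM in the 4 LPS-CPD-4645 mice. *Col6a1* rose by less than 2-fold (log2 fold change 0.59, SE 0.17, adjusted p = 0.0207; adjusted p = 0.0627 to 0.0788 without mouse 3 or 4 of sham-vehicle or mouse 1 of LPS-vehicle) with groups that overlapped, while its partner chains *Col6a2* and *Col6a3* did not pass (log2 fold change 0.32, 95% interval -0.04 to 0.69, adjusted p = 0.214, and log2 fold change 0.12, 95% interval -0.39 to 0.63, adjusted p = 0.791). *Col18a1*, the basement membrane collagen that carries endostatin, did not pass either (log2 fold change 0.30, 95% interval -0.07 to 0.67, adjusted p = 0.253).

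Of the 5 fibrillar collagen genes, 3 fell, beside 8.86% of all genes tested. *Col3a1*, collagen III of compliant vessel walls, had 7.56, 5.39, 9.52 and 6.72 CPM in the 4 sham-vehicle mice, 4.26, 3.28, 2.27, 2.87 and 4.41 CPM in the 5 LPS-vehicle mice and 3.8, 2.76, 2.48 and 2.32 CPM in the 4 LPS-CPD-4645 mice. *Col1a1*, the main chain of collagen I, had 11.3, 9.93, 13.9 and 14.2 CPM in the 4 sham-vehicle mice, 6.04, 5.51, 1.51, 6.19 and 11.3 CPM in the 5 LPS-vehicle mice and 5.3, 6.23, 4.48 and 4.24 CPM in the 4 LPS-CPD-4645 mice. *Col1a2*, its partner chain, had 20.2, 15.6, 20.4 and 20.5 CPM in the 4 sham-vehicle mice, 11, 13, 6.55, 14.3 and 14.5 CPM in the 5 LPS-vehicle mice and 16.8, 14.1, 10.4 and 11.9 CPM in the 4 LPS-CPD-4645 mice. In *Col3a1* and *Col1a2* each LPS-vehicle mouse was below each sham-vehicle mouse, and in *Col1a1* the groups overlapped through LPS-vehicle mouse 5. *Col3a1* fell by more than 2-fold (log2 fold change -1.07, SE 0.23, adjusted p = 0.00273), and *Col1a1* (log2 fold change -0.96, SE 0.30, adjusted p = 0.0313) and *Col1a2* (log2 fold change -0.67, SE 0.19, adjusted p = 0.0174) fell by less. An adjusted p of at most 0.05 was lost when single mice were left out for *Col1a1* (adjusted p = 0.052 to 0.0856 without mouse 1, 3 or 4 of sham-vehicle or mouse 1, 2 or 4 of LPS-vehicle) and *Col1a2* (adjusted p = 0.0502 to 0.0509 without mouse 3 or 4 of sham-vehicle). The *Col3a1* change was under 2-fold without sham-vehicle mouse 3 (log2 fold change -0.92) or without LPS-vehicle mouse 3 (-0.98), and that of *Col1a1* was over 2-fold without sham-vehicle mouse 2 (-1.05) or LPS-vehicle mouse 5 (-1.29). *Col5a1* and *Col5a2*, chains of the collagen V that starts fibrils, did not pass (log2 fold change 0.11, 95% interval -0.21 to 0.43, adjusted p = 0.665, and log2 fold change -0.03, 95% interval -0.50 to 0.44, adjusted p = 0.95). The summed CPM of 12 fibroblast markers that are not matrix genes was 205 to 246 in sham-vehicle and 126 to 216 in LPS-vehicle mice, with 4 of the 12 log2 fold changes above 0. *Igf2* held 100 of the mean sum of 220.3 CPM in sham-vehicle and 53.3 of 177 CPM in LPS-vehicle mice, and the other 11 markers together had 120.4 and 124 CPM. Of the 12, *Slc47a1* and *Slc22a6* fell past the threshold and none rose past it. None of the 12 was at 0 in all libraries, and their part in the collagen results was not tested.

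The upstream sequence of *Col3a1* is shown because it was the one matrix gene that fell past the threshold with LPS. It is chr1:45311288-45311537 on the plus strand (RefSeq, GRCm38), the 250 bases before the start site, with a TATAAA motif in capitals.
Col3a1: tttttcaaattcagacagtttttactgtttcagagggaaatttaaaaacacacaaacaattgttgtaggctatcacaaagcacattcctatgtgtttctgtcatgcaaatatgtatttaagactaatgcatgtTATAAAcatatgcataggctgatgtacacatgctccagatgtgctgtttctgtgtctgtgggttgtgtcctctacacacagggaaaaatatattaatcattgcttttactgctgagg
The motif TATAAA on either strand stood in 13.6% of 32851 promoter windows of 300 bases around mouse start sites and in 3 of the 34 windows of matrix genes, which cover 28 of the 41 genes.

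Of the laminins, *Lama5* encodes the alpha5 chain, which endothelial cells add to the vascular sheet. It had 15.3, 14.6, 14.9 and 12.9 CPM in the 4 sham-vehicle mice, 23.9, 23.2, 28.4, 20.7 and 23.3 CPM in the 5 LPS-vehicle mice and 33.8, 42.6, 33.2 and 24.9 CPM in the 4 LPS-CPD-4645 mice. All LPS-vehicle mice were above all sham-vehicle mice (log2 fold change 0.72, SE 0.14, adjusted p = 0.00101). *Lama5* was the one laminin chain of 9 with an adjusted p of at most 0.05 in this comparison. *Lamb1* and *Lamc1*, beta and gamma partners, were higher on average without passing (log2 fold change 0.35, 95% interval 0.04 to 0.66, adjusted p = 0.109, and log2 fold change 0.31, 95% interval 0.05 to 0.58, adjusted p = 0.0929). *Lama4*, the other vascular alpha chain (log2 fold change 0.15, 95% interval -0.23 to 0.53, adjusted p = 0.615), *Lama1* and *Lama2*, the alpha chains of the astrocyte and meningeal sheet (log2 fold change -0.18, 95% interval -0.65 to 0.30, adjusted p = 0.645, and log2 fold change -0.40, 95% interval -0.82 to 0.03, adjusted p = 0.186), and *Lamb2* (log2 fold change -0.06, 95% interval -0.48 to 0.35, adjusted p = 0.871) did not pass. Neither did *Lama3* nor *Lamc3*, at log2 fold changes of -0.10 and -0.20.

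The linkers rose in part. *Hspg2* encodes perlecan, the large heparan sulfate proteoglycan that binds growth factors in the vascular sheet, and had 12.6, 18.1, 18.9 and 11.8 CPM in the 4 sham-vehicle mice, 24.3, 37.5, 27.7, 19.8 and 31.8 CPM in the 5 LPS-vehicle mice and 10, 12.1, 14.2 and 8.24 CPM in the 4 LPS-CPD-4645 mice. *Nid1*, nidogen-1, which joins laminin to collagen IV, had 12, 8.12, 12.7 and 8.74 CPM in the 4 sham-vehicle mice, 15.5, 14.9, 9.7, 17.8 and 22.3 CPM in the 5 LPS-vehicle mice and 24.7, 25.9, 21.5 and 18.9 CPM in the 4 LPS-CPD-4645 mice. Each LPS-vehicle mouse lay above each sham-vehicle mouse in *Hspg2*, and in *Nid1* the groups overlapped. Both were higher by less than 2-fold (*Hspg2*: log2 fold change 0.88, SE 0.20, adjusted p = 0.00368, and *Nid1*: log2 fold change 0.64, SE 0.19, adjusted p = 0.0257), and the *Nid1* call was lost when single mice were left out (adjusted p = 0.0515 to 0.0863 without mouse 2 or 4 of sham-vehicle or mouse 4 or 5 of LPS-vehicle). *Nid2*, the related nidogen-2, did not pass (log2 fold change -0.08, 95% interval -0.49 to 0.34, adjusted p = 0.836), nor did *Agrn* (log2 fold change 0.12, 95% interval -0.06 to 0.31, adjusted p = 0.371).

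Other members moved singly. *Tnc*, tenascin-C, an anti-adhesive glycoprotein, fell from 8.61 ± 0.851 to 4.66 ± 0.855 CPM (log2 fold change -0.89, SE 0.19, adjusted p = 0.00314), with each LPS-vehicle mouse below each sham-vehicle mouse. *Dcn* had 35, 33, 35.6 and 34.4 CPM in the 4 sham-vehicle mice, 50.5, 44.7, 62.9, 39.6 and 54 CPM in the 5 LPS-vehicle mice and 63.6, 76.1, 43 and 42.4 CPM in the 4 LPS-CPD-4645 mice, and rose by less than 2-fold (log2 fold change 0.54, SE 0.16, adjusted p = 0.0222; adjusted p = 0.051 to 0.0524 without mouse 2 or 4 of sham-vehicle or mouse 3 of LPS-vehicle). *Fbln5*, fibulin-5, which guides elastin onto microfibrils, rose from 8.9 ± 0.863 to 17.3 ± 6.97 CPM (log2 fold change 0.96, SE 0.25, adjusted p = 0.0113), with LPS-vehicle mouse 1 at 8.28 and the other 4 between 15.9 and 27.7 CPM. Its change was over 2-fold without LPS-vehicle mouse 1 (log2 fold change 1.14) or sham-vehicle mouse 1 (1.02). *Lum* (lumican) and *Bgn* were lower on average without passing (log2 fold change -0.88, 95% interval -1.54 to -0.23, adjusted p = 0.0538, and log2 fold change -0.46, 95% interval -0.87 to -0.06, adjusted p = 0.0986). *Fn1*, fibronectin, *Vcan*, versican, and *Fbn1*, fibrillin-1 of microfibrils, were higher on average without passing, at log2 fold changes of 0.39, 0.38 and 0.32. *Eln* and *Fbln1* stood at -0.36 and 0.11.

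**Figure D3:**
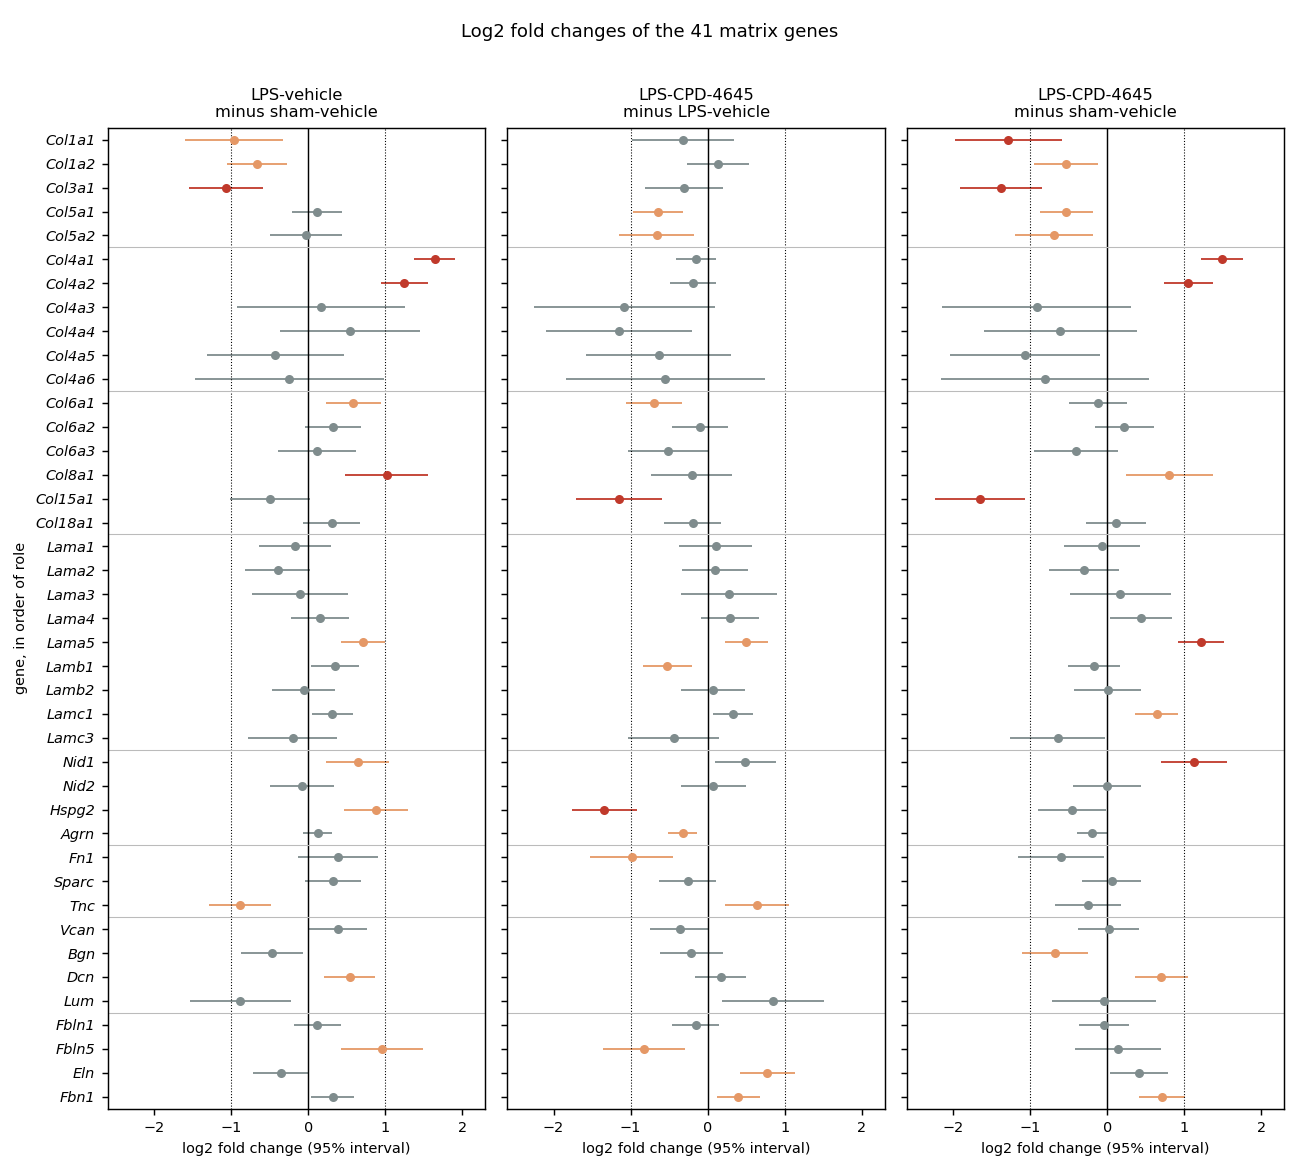
Log2 fold change of each of the 41 genes (points) with its 95% interval (lines) in the 3 comparisons, ordered by role with grey lines between roles. Red marks an adjusted p of at most 0.05 with at least a 2-fold change (dotted lines), orange an adjusted p of at most 0.05 with a smaller change and grey the rest. *Col4a1* lies farthest to the right in the first panel, *Hspg2* farthest to the left in the second and *Col15a1* farthest to the left in the third.

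With CPD-4645, perlecan was lower, and the 2 vascular collagen IV chains did not pass the test. *Hspg2* and *Col15a1*, a collagen bound to the outer face of basement membranes, were lower in LPS-CPD-4645 than in LPS-vehicle mice. These 2 of 41 genes passed the threshold, against 4.19% of all genes tested, and 0 genes passed it as higher, against 1.7%, in the edgeR quasi-likelihood test. At an unadjusted p under 0.05, 7 of the 41 were higher, against 19.4% of all genes, and 10 were lower, against 22%, and DESeq2 and limma-voom gave 0 higher as well. At an adjusted p of at most 0.05 with no minimum fold, 4 were higher, against 14.1% of all genes, and 9 were lower, against 16.4%. The groups did not overlap in 5 genes, with LPS-CPD-4645 above in 2 (11.1% of all genes) and below in 3 (12% of all genes). The median log2 fold change of the 41 genes was -0.21, beside -0.0232 for all genes tested, and 15 of the 41 were above 0, beside 47.8% of all genes.

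*Hspg2* fell from 28.2 ± 6.82 to 11.1 ± 2.55 CPM (log2 fold change -1.34, SE 0.20, adjusted p = 1.27e-04). Each of the 4 LPS-CPD-4645 mice was below each of the 5 LPS-vehicle mice, and they overlapped the sham-vehicle mice (log2 fold change -0.46, 95% interval -0.90 to -0.02, adjusted p = 0.092). *Agrn*, the other large heparan sulfate proteoglycan, fell by less (log2 fold change -0.32, SE 0.09, adjusted p = 0.0102), also without overlap. The nidogens did not pass: *Nid1* was higher on average (log2 fold change 0.49, 95% interval 0.09 to 0.88, adjusted p = 0.0598) and *Nid2* was at log2 fold change 0.07, 95% interval -0.35 to 0.49, adjusted p = 0.814.

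*Col15a1* had 5.99, 6.19, 7.65 and 6.57 CPM in the 4 sham-vehicle mice, 5.08, 5.08, 5.8, 5.42 and 2.21 CPM in the 5 LPS-vehicle mice and 1.74, 2.24, 1.58 and 2.79 CPM in the 4 LPS-CPD-4645 mice. Its LPS-vehicle mice were each below each sham-vehicle mouse without passing (log2 fold change -0.50, 95% interval -1.02 to 0.02, adjusted p = 0.176), and its LPS-CPD-4645 mice were lower again (log2 fold change -1.15, SE 0.27, adjusted p = 0.00348). LPS-vehicle mouse 5 lay within the LPS-CPD-4645 range, and the other 4 LPS-vehicle mice lay above it. *Col4a1* and *Col4a2* did not pass in this comparison (log2 fold change -0.15, 95% interval -0.41 to 0.11, adjusted p = 0.37, and log2 fold change -0.19, 95% interval -0.49 to 0.11, adjusted p = 0.324), so a fall of either by 2-fold lay outside the intervals. *Col6a1* fell from 72.2 ± 19.8 to 44.8 ± 6.28 CPM (log2 fold change -0.70, SE 0.17, adjusted p = 0.00517). *Col5a1* and *Col5a2* both fell (log2 fold change -0.65, SE 0.16, adjusted p = 0.00475, and log2 fold change -0.66, SE 0.23, adjusted p = 0.0375; adjusted p = 0.0717 to 0.131 without mouse 1 or 4 of LPS-vehicle or mouse 2 or 4 of LPS-CPD-4645), whereas *Col1a1*, *Col1a2* and *Col3a1* did not pass, at log2 fold changes of -0.32, 0.13 and -0.31. *Col8a1* stood at log2 fold change -0.21, 95% interval -0.74 to 0.32, adjusted p = 0.557. The low chains *Col4a3* and *Col4a4* had estimates past 2-fold (-1.08 and -1.15) that did not pass (adjusted p = 0.152 and 0.0609), on at most 102 reads per library. In *Col4a4* each LPS-CPD-4645 mouse was below each LPS-vehicle mouse.

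*Lama5* was the laminin that rose with CPD-4645 (log2 fold change 0.50, SE 0.13, adjusted p = 0.00833; adjusted p = 0.0532 without mouse 2 of LPS-CPD-4645), with groups that overlapped by the lowest LPS-CPD-4645 mouse. *Lamc1* and *Lama4* were higher on average without passing (log2 fold change 0.33, 95% interval 0.07 to 0.59, adjusted p = 0.0526, and log2 fold change 0.29, 95% interval -0.09 to 0.66, adjusted p = 0.241). *Lamb1* fell (log2 fold change -0.52, SE 0.15, adjusted p = 0.0141; adjusted p = 0.0556 to 0.0607 without mouse 3 or 4 of LPS-CPD-4645), and *Lamb2* did not pass (log2 fold change 0.07, 95% interval -0.35 to 0.48, adjusted p = 0.823). The remaining 4 chains, *Lama1*, *Lama2*, *Lama3* and *Lamc3*, were between -0.44 and 0.28 and did not pass.

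Elastic fibre and adhesive genes divided by gene. *Eln*, the core of the elastic fibre, had 13.1, 10.6, 12.6 and 9.43 CPM in the 4 sham-vehicle mice, 10.4, 10.9, 6.68, 8.68 and 7.54 CPM in the 5 LPS-vehicle mice and 12.3, 18.6, 16.7 and 13.3 CPM in the 4 LPS-CPD-4645 mice. *Eln* rose (log2 fold change 0.77, SE 0.17, adjusted p = 0.00254) with each LPS-CPD-4645 mouse above each LPS-vehicle mouse. *Fbn1* rose too (log2 fold change 0.40, SE 0.13, adjusted p = 0.03004; adjusted p = 0.0609 to 0.0887 without mouse 1 or 5 of LPS-vehicle or mouse 1, 2 or 4 of LPS-CPD-4645), again without overlap. *Fbln5* fell (log2 fold change -0.82, SE 0.25, adjusted p = 0.0193; adjusted p = 0.0587 to 0.0739 without mouse 2 of LPS-vehicle or mouse 2 or 4 of LPS-CPD-4645) and *Fbln1* did not pass (log2 fold change -0.16, 95% interval -0.46 to 0.15, adjusted p = 0.446). *Tnc* rose (log2 fold change 0.64, SE 0.20, adjusted p = 0.0194; adjusted p = 0.0513 to 0.103 without mouse 4 of LPS-vehicle or mouse 2 of LPS-CPD-4645) to a level that overlapped the sham-vehicle mice. *Fn1* fell from 48 ± 18.8 to 24.8 ± 8.62 CPM (log2 fold change -0.99, SE 0.25, adjusted p = 0.00715), just short of 2-fold. LPS-CPD-4645 mouse 1 held 37.6 CPM of *Fn1*, and without that mouse the log2 fold change was -1.24 and the gene passed, as it did without LPS-vehicle mouse 1, 2 or 3 (-1.03 to -1.14). Without LPS-vehicle mouse 1 *Fbln5* passed the threshold too, which took the lower genes from 2 to 4. *Lum* was higher on average, without passing (log2 fold change 0.84, 95% interval 0.18 to 1.5, adjusted p = 0.0502), and *Dcn*, *Bgn*, *Vcan* and *Sparc* did not pass, at 0.17, -0.21, -0.36 and -0.26.

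The upstream stretches of *Hspg2* and *Lama5* are shown because both genes rose with LPS and then differed in direction with CPD-4645. They come from RefSeq (GRCm38) and leave out exons. The first is chr4:137468553-137468768 on the plus strand, which ends 34 bases before the RefSeq start site, and the second is chr2:180225860-180226109 on the minus strand, which ends at the start site. Capitals mark GGGCGG, the letters of a GC box, or CCGCCC, the same letters on the other strand.
Hspg2: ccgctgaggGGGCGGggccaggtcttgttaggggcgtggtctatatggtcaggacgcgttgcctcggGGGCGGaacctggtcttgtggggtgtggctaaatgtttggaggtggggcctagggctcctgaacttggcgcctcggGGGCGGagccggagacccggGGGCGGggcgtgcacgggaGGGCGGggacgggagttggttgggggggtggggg
Lama5: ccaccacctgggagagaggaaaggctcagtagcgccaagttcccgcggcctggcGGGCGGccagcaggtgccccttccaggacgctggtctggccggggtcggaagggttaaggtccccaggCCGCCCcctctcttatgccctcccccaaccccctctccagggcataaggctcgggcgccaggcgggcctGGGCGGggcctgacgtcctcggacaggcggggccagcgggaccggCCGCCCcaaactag
The first holds 5 such motifs and the second 4. GGGCGG on either strand stood in 35.7% of the 32851 mouse windows and in 24 of the 34 windows of matrix genes (70.6%), and the *Col15a1* window held none. CCAAT stood in 37.4% of all windows and in 9 of 34.

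LPS-CPD-4645 mice were also compared with sham-vehicle mice, and both comparisons above share libraries with this one, so the values stand side by side. Higher past the threshold were 4 of 41 genes, against 6.11% of all genes, and lower were 3, against 4.98%. With no minimum fold, 8 were higher, against 19.5% of all genes, and 7 were lower, against 19.3%. The groups did not overlap in 12 genes, with LPS-CPD-4645 above in 7 (18.7% of all genes) and below in 5 (18.8%), and 17 of the 41 log2 fold changes were above 0, beside 48.8% of all genes. The higher genes were *Col4a1* (log2 fold change 1.49, SE 0.13, adjusted p = 2.18e-07), *Lama5* (log2 fold change 1.22, SE 0.14, adjusted p = 4.17e-06), *Nid1* (log2 fold change 1.13, SE 0.20, adjusted p = 3.03e-04) and *Col4a2* (log2 fold change 1.05, SE 0.15, adjusted p = 3.28e-05). Each LPS-CPD-4645 mouse lay above each sham-vehicle mouse in these 4 genes. The *Col4a2* change was near the 2-fold bound, at 0.96 without sham-vehicle mouse 4 and just under the bound without LPS-CPD-4645 mouse 2. *Lamc1*, *Fbn1*, *Dcn* and *Col8a1* were higher by less than 2-fold, at log2 fold changes of 0.64, 0.71, 0.70 and 0.81 (adjusted p = 9.58e-04, 6.56e-04, 0.00262 and 0.0241). The *Col8a1* call was lost when single mice were left out (adjusted p = 0.0619 to 0.0717 without mouse 2 or 4 of sham-vehicle or mouse 2 or 3 of LPS-CPD-4645).

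The lower genes were *Col15a1* (log2 fold change -1.65, SE 0.28, adjusted p = 1.49e-04), *Col3a1* (log2 fold change -1.38, SE 0.25, adjusted p = 3.20e-04) and *Col1a1* (log2 fold change -1.28, SE 0.33, adjusted p = 0.0049), with no overlap between groups in any of the 3. All 5 fibrillar collagen genes were lower at an adjusted p of at most 0.05, beside 19.3% of all genes tested, with *Col1a2*, *Col5a1* and *Col5a2* at log2 fold changes of -0.54, -0.53 and -0.69 (adjusted p = 0.0413, 0.0153 and 0.0302). Leaving out single mice ended the last 3 of these calls, with adjusted p = 0.063 to 0.13 without mouse 1, 3 or 4 of sham-vehicle or mouse 2, 3 or 4 of LPS-CPD-4645 for *Col1a2*, adjusted p = 0.0558 to 0.0637 without mouse 2 of sham-vehicle or mouse 4 of LPS-CPD-4645 for *Col5a1* and adjusted p = 0.0513 to 0.119 without mouse 1 or 2 of sham-vehicle or mouse 2 or 4 of LPS-CPD-4645 for *Col5a2*. *Bgn* was lower as well (log2 fold change -0.68, SE 0.20, adjusted p = 0.0144; adjusted p = 0.0524 to 0.0573 without mouse 1 or 3 of sham-vehicle). *Col6a1*, *Tnc*, *Fbln5* and *Lum* stood at -0.11, -0.25, 0.14 and -0.04 and did not pass. Their intervals ran from -0.49 to 0.26 for *Col6a1* to -0.72 to 0.64 for *Lum*.

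Ratios within a library compare partner chains of collagen trimers, or the 2 vascular laminin alpha chains, and need no scaling between libraries. Per kilobase, *Col4a1* stood at 0.85 to 1.27 times *Col4a2* in sham-vehicle, 1.34 to 1.52 times in LPS-vehicle and 1.25 to 1.63 times in LPS-CPD-4645 mice. The log2 ratio was higher in LPS-vehicle than in sham-vehicle mice by 0.40, p = 0.0159, adjusted p = 0.0714 (two-sided exact permutation test, adjusted over 9 ratio tests), and no mouse overlapped. That p is the smallest that 4 against 5 mice can give, as 0.0286 is for 4 against 4, and none of the 9 ratios passed after adjustment. *Col1a1* to *Col1a2* was 0.506 to 0.624 in sham-vehicle, 0.208 to 0.705 in LPS-vehicle and 0.285 to 0.398 in LPS-CPD-4645 mice, with a log2 difference between LPS-CPD-4645 and sham-vehicle of -0.74, p = 0.0286, adjusted p = 0.0714 (exact permutation test). *Lama4* to *Lama5* was 0.891 to 1.16, 0.638 to 0.937 and 0.533 to 0.737 in the same order, with log2 differences of -0.57, p = 0.0317, adjusted p = 0.0714 for LPS-vehicle against sham-vehicle and -0.75, p = 0.0286, adjusted p = 0.0714 for LPS-CPD-4645 against sham-vehicle (exact permutation tests). For LPS-CPD-4645 against LPS-vehicle the 3 log2 differences were within 0.23 of 0, with unadjusted p = 0.683 for collagen IV, 0.556 for collagen I and 0.27 for the laminins (exact permutation tests).

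**Figure D4:**
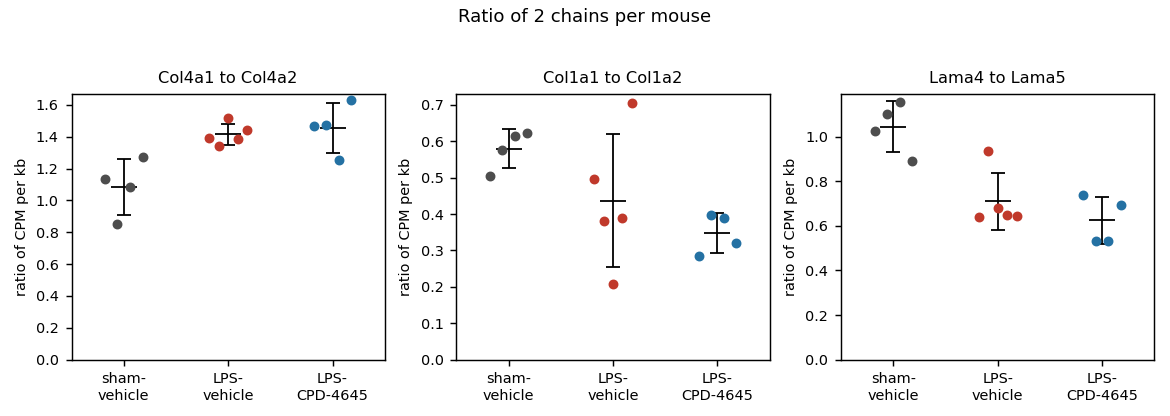
Ratio of CPM per kb of the paired collagen chains, and of the 2 vascular laminin alpha chains, in each mouse (points) with the group mean and SD (bars), for *Col4a1* to *Col4a2*, *Col1a1* to *Col1a2* and *Lama4* to *Lama5*. The 5 LPS-vehicle mice sit above the 4 sham-vehicle mice in the first panel, and the LPS-CPD-4645 mice sit below the sham-vehicle mice in the other panels.

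The summed markers of vessel cells moved with the groups too, so the matrix genes were also set against them in each mouse. *Col4a1* CPM was 0.172 to 0.237 of the summed endothelial markers in sham-vehicle, 0.394 to 0.569 in LPS-vehicle and 0.458 to 0.609 in LPS-CPD-4645 mice, and *Col4a2* was at 0.164 to 0.197, 0.276 to 0.366 and 0.323 to 0.404, so both LPS groups stayed above sham-vehicle on this scale. *Nid1* was at 0.0283 to 0.0446, 0.0303 to 0.0486 and 0.0714 to 0.0891 and *Lama5* at 0.0443 to 0.0602, 0.0472 to 0.117 and 0.0974 to 0.147 of the same sum. On that scale *Nid1* stood apart in the LPS-CPD-4645 mice, and its LPS-vehicle and sham-vehicle mice overlapped, as did those of *Lama5*. *Hspg2* was at 0.0364 to 0.0663, 0.0473 to 0.114 and 0.029 to 0.0476, and its 3 groups overlapped. *Col15a1* was at 0.0173 to 0.0306, 0.0048 to 0.0238 and 0.00502 to 0.0112, with the LPS-CPD-4645 mice below the sham-vehicle mice and the LPS-vehicle mice overlapping both. The single endothelial markers did not move alike: *Cdh5* rose and *Tek* fell past the threshold with LPS (log2 fold changes 1.14 and -1.49), and *Tie1* fell with CPD-4645 (-1.02).

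Against the summed fibroblast markers, *Col3a1* was at 0.0261 to 0.0424, 0.0133 to 0.0267 and 0.0128 to 0.0195, *Col1a1* at 0.0461 to 0.0691, 0.012 to 0.0548 and 0.0231 to 0.0328 and *Col15a1* at 0.0244 to 0.0341, 0.0107 to 0.0459 and 0.00815 to 0.0162 in sham-vehicle, LPS-vehicle and LPS-CPD-4645 mice. *Col1a2* was at 0.0755 to 0.09995, 0.0519 to 0.0735 and 0.0536 to 0.086 on this scale. The LPS-CPD-4645 mice lay below the sham-vehicle mice in *Col3a1*, *Col1a1* and *Col15a1*, and overlapped them in *Col1a2*, whose LPS-vehicle mice lay below the sham-vehicle mice. *Igf2* made up 45.4%, 30.1% and 44.1% of the mean fibroblast sum in the 3 groups, and the single fibroblast markers did not move alike. *Col8a1* against the 11 pericyte and smooth muscle markers, which summed to 207 to 310.4, 159.9 to 245 and 183 to 249 CPM, was at 0.00693 to 0.01003, 0.0138 to 0.0386 and 0.0118 to 0.0269. Both LPS groups lay above sham-vehicle on that scale, whereas in CPM the LPS-CPD-4645 mice overlapped sham-vehicle. *Rgs5* held 130 of the mean sum of 265 CPM in sham-vehicle and 92.3 of 211 CPM in LPS-vehicle mice. The single pericyte and smooth muscle markers did not move alike. With LPS, 4 of the 11 log2 fold changes were above 0, 3 markers fell past the threshold and 1 rose by less than 2-fold.

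**Figure D5:**
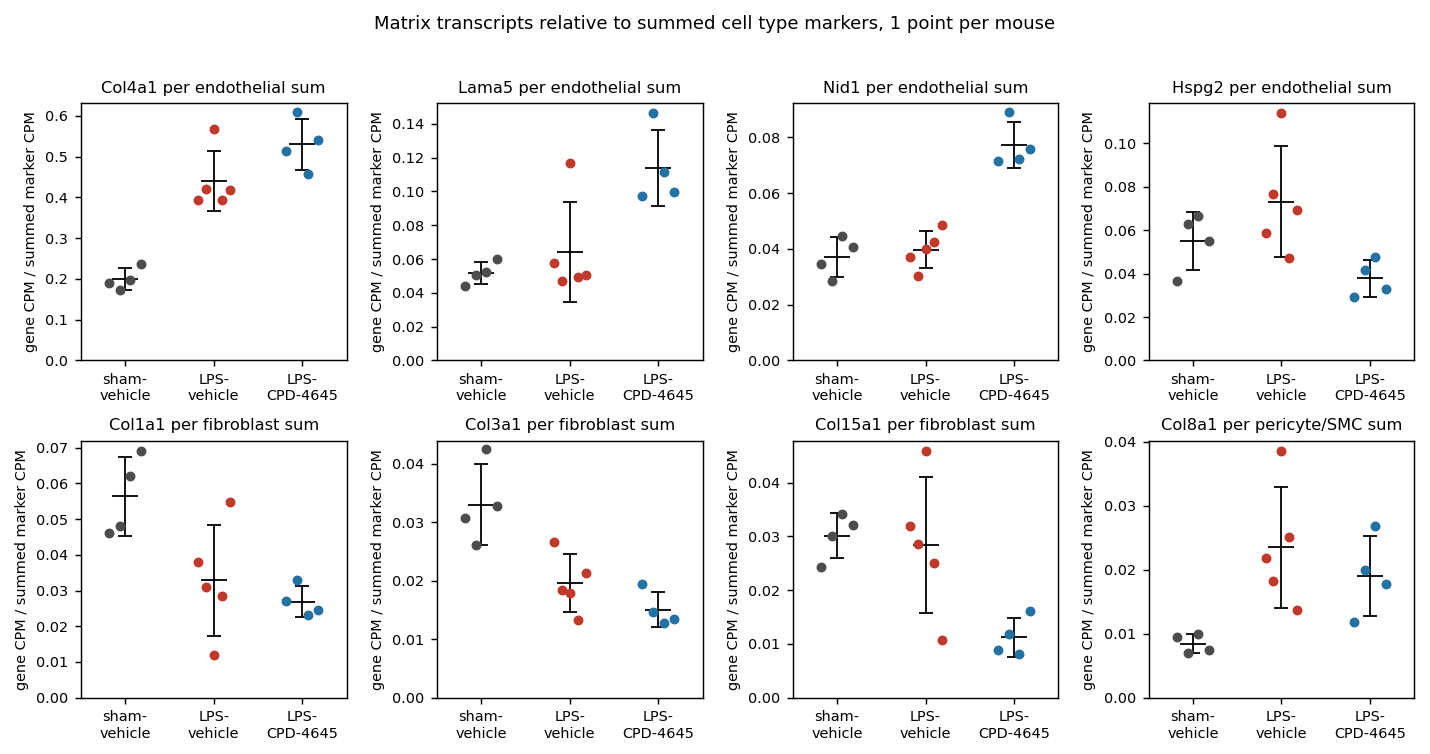
CPM of a matrix gene divided by the summed CPM of the markers of a vessel cell type in each mouse (points) with the group mean and SD (bars). *Col4a1* stays above sham-vehicle in both LPS groups, *Nid1* is above both other groups in LPS-CPD-4645 mice, and *Col3a1* and *Col15a1* are below sham-vehicle there.

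Genes around the members were counted from 3 further lists, to be read against the shares of all genes past the threshold, 4.68% higher and 0.995% lower with LPS and 1.7% higher and 4.19% lower with CPD-4645. With CPD-4645 14.1% of all genes were higher and 16.4% lower at an adjusted p of at most 0.05, and 19.4% and 22% at an unadjusted p under 0.05. Of 39 tested genes among 40 other core matrix genes, 8 were higher and 3 lower past the threshold with LPS. The median log2 fold change of this list was 0.157 with LPS and -0.333 with CPD-4645, beside -6.54e-04 and -0.0232 for all genes tested. *Tgfbi*, a secreted adhesion protein, rose from 5.44 ± 1.5 to 18.9 ± 4.98 CPM (log2 fold change 1.79, adjusted p = 3.54e-06). *Emilin2*, of the elastic fibre interface, *Col16a1* and *Mgp*, an inhibitor of calcification, rose by 1.53, 1.47 and 1.13 on the log2 scale. With CPD-4645, 0 were higher and 3 lower in the edgeR test, 4 and 15 at an unadjusted p under 0.05, and DESeq2 and limma-voom gave the same 0 and 3. *Prelp*, a proteoglycan that binds perlecan to collagen, fell from 13.6 ± 4.85 to 4.9 ± 0.631 CPM (log2 fold change -1.49, adjusted p = 9.74e-05) and *Col11a1* from 18.8 ± 5.05 to 7.23 ± 1.69 CPM (-1.39), while *Col16a1* and *Smoc1* fell by less than 2-fold (-0.98 and -0.53).

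Among the enzymes and chaperones that build and cross-link collagen, 30 of the 31 matched were tested, and 3 rose past the threshold with LPS. The median log2 fold change of these 30 genes was 0.238 with LPS and -0.151 with CPD-4645. *Tgm2*, transglutaminase 2, which cross-links matrix proteins, rose from 13.5 ± 4.04 to 88.3 ± 15.4 CPM (log2 fold change 2.70, adjusted p = 2.31e-08), and *Lox*, lysyl oxidase, which cross-links collagen and elastin, from 1.32 ± 0.659 to 5.35 ± 0.0854 CPM (1.98). *Pxdn*, peroxidasin, which makes the sulfilimine bonds of collagen IV, and *Colgalt1*, a collagen galactosyltransferase, rose by less than 2-fold (0.58 and 0.42). With CPD-4645 no gene of this list passed the threshold in the edgeR test (count 0), with 6 higher and 9 lower at an adjusted p of at most 0.05, and the same 6 and 9 counts at an unadjusted p under 0.05, and DESeq2 and limma-voom also gave 0. *Colgalt1*, *P4ha1*, a collagen prolyl hydroxylase subunit, *Serpinh1*, the collagen chaperone HSP47, and *Plod3*, a lysyl hydroxylase, fell by less than 2-fold, at log2 fold changes of -0.92, -0.69, -0.95 and -0.50 (adjusted p = 1.71e-06, 1.69e-04, 3.28e-04 and 8.13e-04). In these 4 genes, chosen by their p in this comparison, each LPS-CPD-4645 mouse was below each LPS-vehicle mouse. Over the 30 genes the LPS-CPD-4645 mice lay below without overlap in 6 (12% of all genes) and above in 4 (11.1% of all genes).

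Of 32 tested matrix receptors among 34, 4 were higher and 1 lower past the threshold with LPS. The median log2 fold change of the receptors was -0.00132 with LPS and -0.124 with CPD-4645. *Itga5*, the fibronectin receptor chain, rose from 4.87 ± 0.576 to 19.2 ± 3.98 CPM (log2 fold change 1.97, adjusted p = 5.91e-07) and *Sdc4*, a heparan sulfate co-receptor, from 47 ± 4.72 to 189 ± 50 CPM (2.00). *Itgb4*, of the laminin receptor alpha6 beta4, fell from 30.1 ± 1.95 to 14.4 ± 1.69 CPM (-1.06, adjusted p = 2.45e-06), and *Itga7*, another laminin receptor chain, rose by less than 2-fold (0.74). With CPD-4645, 0 receptors were higher in the edgeR test (4 at an unadjusted p under 0.05, and 0 past the threshold with DESeq2 or limma-voom) and 3 were lower: the collagen receptor chains *Itga10* (-1.53) and *Itga11* (-1.88), both at a few CPM, and *Itgb3* (-1.09). *Itga5* fell by less than 2-fold (-0.75, adjusted p = 0.00397).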

How the data were processed

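Stranded poly(A) RNA libraries of vessel fractions from 13 mice were analysed. The authors demultiplexed reads with bcl2fastq 2.15.0.4, aligned them to mm10 with STAR 2.5.2a and deposited raw read counts for the genes of GENCODE M9 (basic set). The strand setting of the counting and a correction for overlapping genes are not given in the sources used here. Gene names, exon lengths and coordinates were taken from GENCODE M21 (GRCm38), and promoter windows from RefSeq (GRCm38.p6). 1 of 32 collagen processing genes (*Ctage5*) could not be matched.

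Genes with at least 10 counts in enough libraries and 15 in all were kept (edgeR filterByExpr, 17285 genes). Counts were scaled by TMM and tested with the edgeR 4.0.16 quasi-likelihood test in R 4.3.3, with the 3 groups in one fit and no covariates, and p-values were adjusted by Benjamini-Hochberg over all genes tested. The threshold was an adjusted p of at most 0.05 with at least a 2-fold change. SEs were derived from the F statistic. Ratios of counts were tested with two-sided exact permutation tests (scipy 1.17.1). limma-voom (limma 3.58.1), DESeq2 1.42.0, other filters, scalings and thresholds, the replicate number as a block and each mouse left out in turn were alternatives. The fits were tested on simulated counts. Depth ran from 7813559 to 55133373 counts, and the lowest genes had 2 to 12 reads in the shallowest library.

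The 41 genes, the other lists and the rule for named genes were chosen with earlier results of these data known. All 41 genes may be named, with values in every mouse for those past the threshold and for the most abundant of each role. Of each other list, the 4 genes with the smallest p in LPS-vehicle against sham-vehicle and the 4 in LPS-CPD-4645 against LPS-vehicle were named. Replicates are separate mice. Mice were treated as unpaired, with the replicate number as a block among the alternatives. Same-numbered mice of different groups correlated at -0.035 to 0.114, over 0.1 in 1 of 12 pairs. Of the 13 libraries, 6 correlated best with a library of their own number in another group, so a pairing by number was not excluded.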

Additional observations from a re-analysis of the deposited data

Results flagged for a closer look

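Across the 123 sets of 41 genes in 3 groups, 3 sets held a mouse set apart from the rest by Dixon's criterion, which chance alone gives in about 1 of 20 sets. *Col1a2* was 15.6 CPM in sham-vehicle mouse 2, below the 3 others at 20.2 to 20.5 CPM. *Col15a1* was 2.21 CPM in LPS-vehicle mouse 5, below the 4 others at 5.08 to 5.8 CPM. *Fn1* was 37.6 CPM in LPS-CPD-4645 mouse 1, one of the 2 shallowest libraries, above the 3 others at 19.3 to 21.5 CPM.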

How the results depend on the processing

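Of the 41 log2 fold changes of matrix genes with an adjusted p of at most 0.05, over the 3 comparisons, 0 changed sign in 943 recomputed values, 23 of which lost the call past the 2-fold threshold and 41 gained it. An adjusted p of at most 0.05 was lost for 16 of the 41 in 62 values (testing the bound itself aside), 53 of them with 1 mouse left out (0.0502 to 0.131). The rest were *Nid1* with LPS under the block, *Dcn* with LPS without the 2 shallowest libraries, *Fbln5* under the block and *Tnc* without those libraries with CPD-4645, *Fbn1* with CPD-4645 under both and with no filter on low counts, and *Col1a1* with LPS and *Col5a2* with CPD-4645 when only the groups compared were fitted. Of the other 82 log2 fold changes, 25 changed sign under some alternative, none of them over 0.321 in size. The counts depended most on the 2-fold bound. In the order LPS-vehicle against sham-vehicle, LPS-CPD-4645 against LPS-vehicle and LPS-CPD-4645 against sham-vehicle, testing the bound itself gave 1, 0 and 1 genes higher and 0, 0 and 0 lower, and dropping it gave 9, 4 and 8 higher and 4, 9 and 7 lower. With limma-voom 2 genes were lower in the first and 4 in the second comparison. Without the 2 shallowest libraries those counts were 0 and 4. With the replicate number as a block 2 genes were lower with LPS, *Col1a1* (log2 fold change -1.35) beside *Col3a1*, and the block moved no other count by over 1.5 times. Leaving out each mouse in turn gave 2 to 4 genes higher and 0 to 2 lower with LPS, 0 to 0 higher and 2 to 4 lower with CPD-4645 and 3 to 4 higher and 3 to 4 lower for LPS-CPD-4645 against sham-vehicle. 1 ratio changed sign, *Col4a1* to *Col4a2* between LPS-CPD-4645 and LPS-vehicle, with log2 differences of -0.021 to 0.11 when single mice were left out. No ratio passed after adjustment under any alternative. These settings left little room to pass: a paired test of 4 mice cannot give p under 0.125. The exact permutation test cannot give p under 0.0571 for 3 against 4 mice or under 0.0286 for 4 against 4. The causes were not tested. Low counts limit *Col4a3*, *Col4a4*, *Col4a6* and *Lama3*, with under 10 reads in some library. These were not only the shallowest libraries: *Col4a6* had 2 reads in sham-vehicle mouse 2 as well as in LPS-vehicle mouse 3. In LPS-vehicle mouse 3, the shallowest library, *Col1a1* had 12 and *Col3a1* 18 reads.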
